A study of Mus musculus with 48 samples.

Results

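The zinc finger genes *Zfp900* to *Zfp999* are 63 of the 55335 genes in the deposited expression tables of mouse embryonic stem cells (mESCs). They were chosen by name alone, as every protein-coding gene of the GENCODE mouse annotation whose symbol lies between *Zfp900* and *Zfp999*, and no measured value entered the choice. Most of them encode KRAB zinc finger proteins (KZFPs). In such a protein an array of C2H2 zinc fingers reads a DNA sequence, commonly in a retrotransposon, while the KRAB box recruits the TRIM28 (KAP1) scaffold, which brings in SETDB1, the enzyme that methylates histone H3 on lysine 9. KZFP genes arise by tandem duplication and lie in clusters of near copies, and the proteins are known for silencing endogenous retroviruses in mESCs. Loss of whole KZFP clusters, the one on distal chromosome 4 among them, is known to release retrotransposons in these cells.

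The study asked what NRDE2, a nuclear protein that binds the exosome helicase MTREX and contacts spliceosomal proteins, does to RNA in mESCs, and set it beside MTREX and beside the splicing-linked protein CCDC174. RNA-seq was made from 28 libraries and ribosome profiling (Ribo-seq) from 4, with 2 libraries in every group, all from mESCs of hybrid 129-C57BL/6 background that carry a 4-hydroxytamoxifen (4OHT) inducible Cre recombinase. *Nrde2*-KO cells had received 100 nM 4OHT for 4 days and *Mtrex*-KO cells 100 nM 4OHT for 3 days, and the wt controls were the untreated conditional lines, so that 4OHT and Cre activity differ together with the deletion. *Nrde2* d200 cells lack the N-terminal part of NRDE2 that carries most of its protein contacts, and *Nrde2* D174R cells have a point mutation that weakens the contact with MTREX. These are edited lines, and each was compared with the wt conditional *Nrde2* line. In the *Ccdc174* line the protein is fused to the FKBP12F36V degron in control and depleted cells alike, and depletion was by 500 nM dTAG-13 for 24 h. A second *Nrde2* experiment and the *Ccdc174* experiment were each run without and with cycloheximide (CHX), a blocker of translation, given at 0.1 mg/ml over 4 h. The Ribo-seq libraries were *Nrde2*-KO and wt. Replicates are separate samples by their labels, which do not say whether they were separate cultures, so each p-value measures the spread between these libraries.

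RNA-seq libraries held 28683644 to 36272309 reads in genes and Ribo-seq libraries 3475051 to 5035940. All values below are read counts scaled to sequencing depth (CPM), divided by a size factor per library (normalized CPM). A gene was called when its adjusted p (limma, Benjamini-Hochberg over all genes tested) was under 0.01 and its log2 fold change was over 1 or under -1, and SE is the standard error of the log2 fold change (log2FC). The 12 markers of mESCs summed to between 4781 and 7087 normalized CPM in every library without CHX when these 20 libraries were scaled together, and 6 fibroblast markers to between 1.79 and 3.86, with 2 of these at 0 in both libraries of most groups. *Nrde2* stood at 40.2 and 38.8 in wt and at 18.3 and 19.5 in *Nrde2*-KO, and *Mtrex* at 115 and 107 in its wt and at 43.6 and 39.8 in *Mtrex*-KO, so the targeted RNA was lower in each knockout but still counted. With CHX, *Nrde2* RNA was 252 and 232 in wt and 264 and 254 in *Nrde2*-KO, so the RNA level did not check the labels of those libraries. CCDC174 is removed as protein, which its RNA cannot check. In bulk samples fewer cells of a type and less RNA per cell cannot be told apart.

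The members lie on 12 chromosomes, and 45 of them stand in 6 runs of neighbours while 18 stand alone. The longest run has 16 members over 2338 kb of chromosome 4 (GRCm38, chr4:145510759-147848366). Runs of 10 members each lie on chromosomes 2 and 17. A KRAB A box was searched with a sequence pattern in the translated coding parts of the transcript chosen for each gene. It was found in 59 members and not in *Zfp956*, *Zfp957*, *Zfp974* and *Zfp986*, the last of which is annotated as a short fragment. A diverged box, or a box in another transcript, would be missed. The median member had 11 zinc fingers, and *Zfp974* had the most, 21. Proteins were compared among the members only, so a closer relative outside them would be missed. The closest other member lay in the same run for 39 members, and for 17 members it was identical at 90% or more of the aligned residues. Only uniquely mapping reads had been counted, so copies with the same sequence may be under-counted. The cells are strain hybrids and the reads were aligned to 1 reference genome, and whether the strains differ in copies of the run was not tested. By protein, 8 members were equal to another member over the aligned part. For *Zfp991*, *Zfp992* and *Zfp993* that part was the 129 residues of ZFP993, in which no finger was found. ZFP991 and ZFP992 have 573 residues each, so their fingers are not shown to be equal by this. *Zfp988* and *Zfp990* also passed 90% over 129 residues of ZFP993 only.

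The chromosome 4 run is shown by sequence because the results below turn on it. RefSeq gave a promoter window (250 bases before to 50 after the start, GRCm38.p6) for 10 of its 16 members and for 53 of the 63. The windows of 8 members (*Zfp979*, *Zfp980*, *Zfp981*, *Zfp982*, *Zfp984*, *Zfp985*, *Zfp987* and *Zfp988*) aligned with each other at 81.0% to 96.6% identity over 206 to 295 bases. The longest stretch they all share is 15 bases, in capitals here.
Zfp988, chr4:147305354-147305653, plus strand: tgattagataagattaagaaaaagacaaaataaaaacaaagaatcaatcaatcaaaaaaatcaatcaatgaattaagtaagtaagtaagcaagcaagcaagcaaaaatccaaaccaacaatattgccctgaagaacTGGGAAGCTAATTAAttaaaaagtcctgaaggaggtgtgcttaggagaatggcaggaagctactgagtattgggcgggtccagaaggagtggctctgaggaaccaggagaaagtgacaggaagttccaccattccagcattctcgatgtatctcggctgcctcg
Zfp982, chr4:147492167-147492466, plus strand: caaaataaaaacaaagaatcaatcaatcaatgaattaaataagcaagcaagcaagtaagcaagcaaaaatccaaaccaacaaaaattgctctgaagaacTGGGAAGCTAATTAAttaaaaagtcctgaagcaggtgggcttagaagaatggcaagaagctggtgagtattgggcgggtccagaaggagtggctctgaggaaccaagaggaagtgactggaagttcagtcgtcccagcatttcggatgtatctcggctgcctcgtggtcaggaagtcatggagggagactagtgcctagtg
Zfp985, chr4:147553027-147553326, plus strand: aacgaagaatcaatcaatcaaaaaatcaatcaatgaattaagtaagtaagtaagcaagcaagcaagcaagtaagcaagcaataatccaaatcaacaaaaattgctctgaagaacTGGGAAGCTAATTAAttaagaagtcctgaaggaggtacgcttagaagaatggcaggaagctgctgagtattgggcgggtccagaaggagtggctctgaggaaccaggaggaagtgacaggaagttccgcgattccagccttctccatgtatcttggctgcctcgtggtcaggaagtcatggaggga
Windows without the stretch are set beside them, those of *Zfp993* and of *Zfp933*, the last member of the run, and the other windows of *Zfp982* lacked it too. *Zfp993* was lower in *Nrde2*-KO and *Zfp933* was not. The *Zfp993* window holds the end of exon 2 of *Zfp981* (chr4:146512875-146512883). The first exon of the *Zfp993* transcript used here ends near chr4:146654954, so this window is not shown to be its promoter. Whether the stretch goes with the change was not tested, and members without a window cannot be judged.
Zfp993, chr4:146512599-146512898, plus strand: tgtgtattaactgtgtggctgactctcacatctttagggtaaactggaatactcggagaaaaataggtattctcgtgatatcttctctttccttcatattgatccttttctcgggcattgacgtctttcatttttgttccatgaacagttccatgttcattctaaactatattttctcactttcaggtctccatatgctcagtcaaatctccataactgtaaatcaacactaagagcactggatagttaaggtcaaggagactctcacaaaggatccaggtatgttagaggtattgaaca
Zfp933, chr4:147848369-147848668, minus strand: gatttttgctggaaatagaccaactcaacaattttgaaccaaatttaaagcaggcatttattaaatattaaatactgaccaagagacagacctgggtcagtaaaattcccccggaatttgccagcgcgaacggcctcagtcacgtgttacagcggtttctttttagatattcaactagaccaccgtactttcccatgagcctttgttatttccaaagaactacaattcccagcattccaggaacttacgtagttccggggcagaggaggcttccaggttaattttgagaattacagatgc
The shared stretch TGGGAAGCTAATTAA, searched on both strands, was in 12 of 32851 promoter windows, which is 0.0365%. These were the windows of the 8 members and of *Gm13212*, *Rex2*, *Zfp534* and *Zfp600*, which are protein-coding genes of chromosome 4. A match describes these windows and not a binding site. Among the members, the closest to ZFP933 by protein was ZFP931 of the chromosome 2 run, at 70.8% over 298 aligned residues of 468. Genes that are not members, also those within the run, were not compared by protein.

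Exon ends of the run were shared as well, in part with other members. At the 5′ splice site, read as the last exon bases in lower case and the first intron bases in capitals, cagGTCAGT was found in 13 of its members and tggGTAAGA in 13. Over all members they were in 21 and 23, and all but 1 of the further holders belong to the chromosome 17 run. The first pairs with 8 of 9 positions of U1 snRNA and made up 0.407% of the 137227 introns of all tested protein-coding genes, and the second pairs with 6 of 9 and made up 0.226%. Introns with 5 or fewer paired positions were 2 of 53 in the tested members of the run (3.77%), 18 of 182 over all tested members (9.89%) and 16.4% over all tested protein-coding genes. These shares describe annotated introns, and intron retention was not measured here.

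Levels of the members were spread over a wide range. *Zfp990* of the chromosome 4 run led, with a mean of 218 CPM over the 20 RNA-seq libraries without CHX, or 62.2 CPM per kb of exon. It was followed per length by *Zfp961* (39.7 CPM per kb), *Zfp979* (32.5), *Zfp985* (28.9) and *Zfp936* (24.8). *Zfp979*, *Zfp985* and *Zfp990* belong to the chromosome 4 run, whereas *Zfp961* stands alone and *Zfp936* belongs to the chromosome 7 run. The median over the 53 members tested was 4.32 CPM per kb, beside 3.82 for 281 other genes named Zfp with a number and 5.13 for 12915 other protein-coding genes. Without CHX 10 members fell under the minimum of 0.5 CPM on average and were not tested, namely *Zfp935*, *Zfp957*, *Zfp965*, *Zfp966*, *Zfp967*, *Zfp968*, *Zfp969*, *Zfp973*, *Zfp986* and *Zfp987*. *Zfp935*, *Zfp965*, *Zfp966* and *Zfp969* had no read in any of the 32 libraries, which allows up to 3 reads or 0.00287 CPM over the RNA-seq libraries together, for uniquely mapping reads only and for counting error only.

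In *Nrde2*-KO cells the chromosome 4 run was lower nearly as a whole, and the rest of the members were not shifted to either side. *Zfp988* was at 32.8 and 37.7 normalized CPM in wt and at 16.2 and 17.5 in *Nrde2*-KO. *Zfp982*, a KZFP that has been linked to the expression of pluripotency genes in mESCs, was at 32.1 and 32.7 in wt and at 14.8 and 17.3 in *Nrde2*-KO. *Zfp993* was at 8.53 and 7.49 in wt and at 3.97 and 3.73 in *Nrde2*-KO. In all 3 genes both knockout libraries lay below both wt libraries. Their log2 fold changes were -1.06 (SE 0.14, adjusted p = 2.14e-05), -1.01 (SE 0.13, adjusted p = 2.5e-05) and -1.01 (SE 0.25, adjusted p = 0.00546), and these 3 were the members called. They lie close to the limit of -1: without wt replicate 2 no member was called, and without *Nrde2*-KO replicate 1 only 1 was. Called lower were 3 of 53 members, beside 2.14% of the 14889 genes tested, and called higher none, beside 2.88%.

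Abundant genes of the run were lower as well. *Zfp985* was at 97.3 and 110 in wt and at 54.1 and 59.6 in *Nrde2*-KO (log2FC -0.86, SE 0.16, adjusted p = 0.000489). *Zfp990*, the most abundant member, was at 207 and 232 in wt and at 148 and 145 in *Nrde2*-KO (log2FC -0.58, SE 0.12, adjusted p = 0.00161). Neither pair of groups overlapped. Of the 14 tested members of the run 13 were below 0, beside 51.1% of all genes, and in all 13 the libraries of the 2 groups did not overlap, beside 37.2% of all genes. Adjusted p was under 0.01 with a lower level of any size in 10 of the 14, beside 11.1% of all genes. That count was 4 without wt replicate 2, 2 without *Nrde2*-KO replicate 1 and 5 without *Nrde2*-KO replicate 2, while 13 or 14 stayed below 0. The median log2 fold change of the run was -0.64, against -0.01 over all genes. *Zfp933* was the exception, at 10.4 and 12.7 in wt and 11.9 and 13.3 in *Nrde2*-KO (log2FC 0.13, SE 0.12, adjusted p = 0.434), and its groups overlapped. *Zfp933* and the run were singled out after their values had been seen.

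Outside the run 39 members were tested, of which 19 were above and 20 below 0, with a median of -0.03. *Zfp950*, which stands alone and has 17 fingers, was at 6.21 and 6.30 in wt and at 11.1 and 10.9 in *Nrde2*-KO (log2FC 0.8, SE 0.14, adjusted p = 0.000367), and *Zfp995* of the chromosome 17 run was at 5.36 and 6.22 in wt and at 9.53 and 9.0 in *Nrde2*-KO (log2FC 0.66, SE 0.15, adjusted p = 0.00253). *Zfp975* of the chromosome 7 run went the other way, from 32.8 and 35.6 to 22.7 and 23.8 (log2FC -0.55, SE 0.12, adjusted p = 0.00195), as did *Zfp958*, from 49 and 51.4 to 33.6 and 37.4 (log2FC -0.5, SE 0.11, adjusted p = 0.00187). None of these 4 genes reached the limit of 1, and none had groups that overlapped. All 4 tested members of the chromosome 7 run were below 0, with a median of -0.35. Summed over its 16 members, the chromosome 4 run held 655 and 731 normalized CPM in wt and 435 and 452 in *Nrde2*-KO, and the 47 other members held 846 and 925 in wt and 845 and 875 in *Nrde2*-KO. Markers of 2-cell-like cells, a rare state of mESC cultures, moved with the comparison: 10 of 10 were detected, and their sum was 3.04 to 3.75 in wt and 25.6 to 38.2 in *Nrde2*-KO, while the mESC markers summed to 6387 to 6689 in wt and 4781 to 5180 in *Nrde2*-KO. Their part in the lower levels of the run was not tested.

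**Figure D1:**
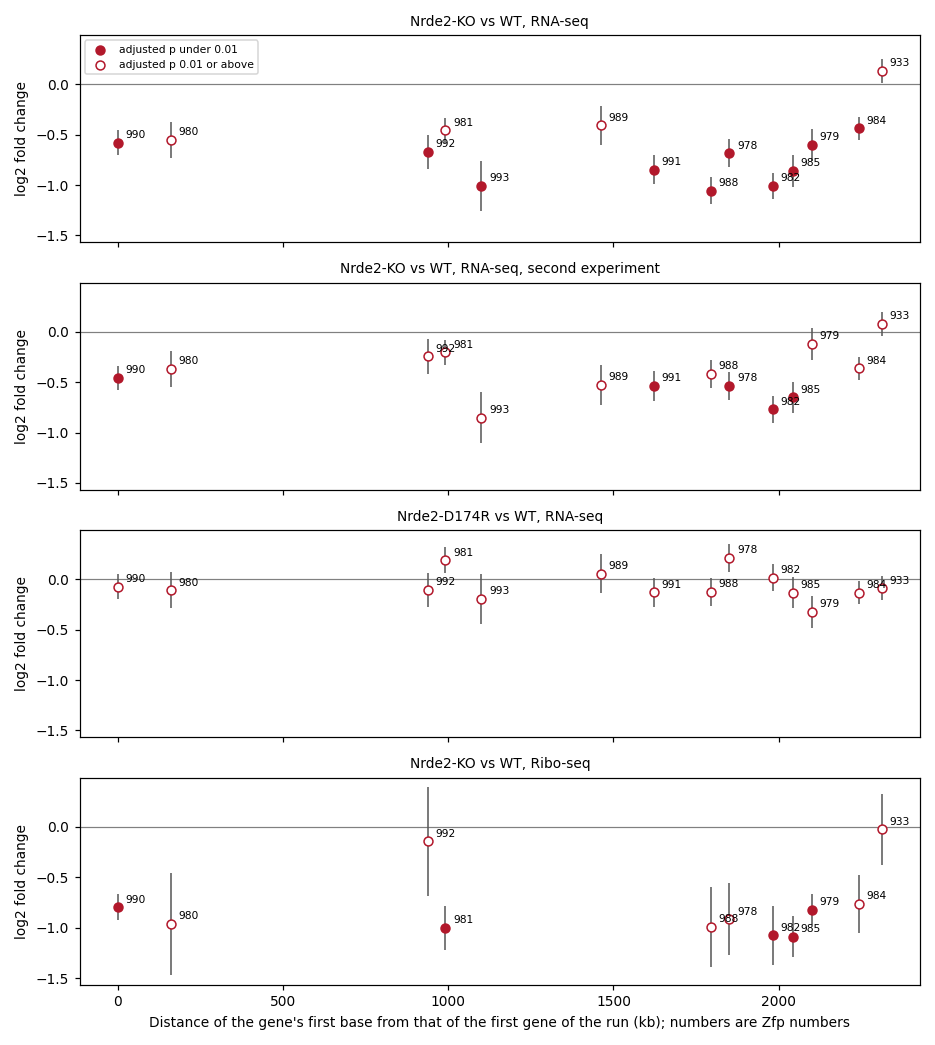
Log2 fold change (vertical axis, bars are SE) of the tested members of the chromosome 4 run against the distance in kb from the first base of the first gene of the run, in 4 comparisons with 2 libraries per group. In *Nrde2*-KO 13 of 14 genes lie below 0 in the first RNA-seq panel and 11 of 11 in the Ribo-seq panel, with *Zfp933* at the right end nearest to 0 or above it, and in D174R no gene has an adjusted p under 0.01.

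The second *Nrde2* experiment used other libraries and tested the same members. *Zfp982* was at 31.1 and 34.1 in wt and at 17.8 and 20.2 in *Nrde2*-KO (log2FC -0.77, SE 0.13, adjusted p = 0.000309), and *Zfp985* at 81.7 and 109 in wt and at 52.8 and 68.2 in *Nrde2*-KO (log2FC -0.65, SE 0.16, adjusted p = 0.00409). For both genes the groups did not overlap. The changes were smaller than in the first experiment, and *Zfp988* was at 22.7 and 29.7 in wt and at 17.1 and 22.0 in *Nrde2*-KO (log2FC -0.42, SE 0.14, adjusted p = 0.0283). No member was called, beside 2.47% of all genes called lower and 2.34% called higher. By limma 21 of 53 members had an unadjusted p under 0.05, beside 6134 of 14889 genes, and edgeR and DESeq2 called no member either. In the chromosome 4 run 13 of 14 were below 0 (50.1% of all genes), 9 had groups without overlap (33.8%), 5 had an adjusted p under 0.01 (11.4%), and the median was -0.44. Without 1 library the 5 became 1 (without wt replicate 2 or without *Nrde2*-KO replicate 1) or 2 (without *Nrde2*-KO replicate 2). With the replicate number as a block they became 8. *Zfp933* was again at the other side, at 11.9 and 11.1 in wt and at 11.8 and 12.6 in *Nrde2*-KO (log2FC 0.08, SE 0.12, adjusted p = 0.642). *Zfp950* was at 8.10 and 9.41 in wt and at 13.0 and 14.1 in *Nrde2*-KO (log2FC 0.62, SE 0.14, adjusted p = 0.00255). The 2-cell-like markers summed to 7.82 to 8.15 in wt and 107 to 116 in *Nrde2*-KO, and their part was not tested.

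The same contrast among CHX-treated cells had less spread between libraries. *Zfp985* was at 283 and 303 in wt and at 167 and 182 in *Nrde2*-KO (log2FC -0.75, SE 0.06, adjusted p = 1.06e-05). *Zfp992* was at 36.9 and 42.7 in wt and at 21.1 and 24.1 in *Nrde2*-KO (log2FC -0.81, SE 0.09, adjusted p = 5.43e-05). For both genes the knockout libraries lay below the wt libraries. With CHX all 16 members of the run could be tested, and 14 were below 0 (52.5% of all genes), 13 had groups without overlap (38.7%) and 11 had an adjusted p under 0.01 (17.4%), with a median of -0.50. Again no member passed the limit of 1 on the log2 scale, beside 1.9% of all genes called lower and 2.76% called higher. At an unadjusted p under 0.05 were 36 of 55 members, beside 7925 of 15476 genes, and edgeR and DESeq2 called no member. The test of whether the *Nrde2*-KO effect differed with and without CHX called no member, beside 0.0661% of all genes called lower and 0.0859% called higher. Its unadjusted p was under 0.05 in 4 of 54 members, beside 2279 of 15133 genes, and edgeR and DESeq2 called no member. *Zfp992* had the smallest p (difference -0.57, SE 0.19, adjusted p = 0.166).

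The 2 mutant alleles of *Nrde2* shared their wt libraries with the first knockout comparison. In d200 cells *Zfp981* of the chromosome 4 run was at 20.2 and 16.8, against 37.9 and 40.3 in wt. Its log2 fold change was -1.07 (SE 0.13, adjusted p = 2.2e-05), and it was the only member called, beside 1.07% of all genes called lower, and none was called higher (1.56%). This call was lost without d200 replicate 2. In the run 13 of 14 were below 0 (50.7% of all genes), 13 had groups without overlap (33.2%), 4 had an adjusted p under 0.01 (4.19%), and the median was -0.57. Untreated lines differed in the level of the run as well: its 16 members summed to 544 and 470 in d200 cells, 655 and 731 in their wt, 537 and 560 in wt of the *Mtrex* line and 1001 and 957 in the *Ccdc174* control. The d200 line and its allele cannot be told apart. The 4 became 2 without wt replicate 1 and 1 without wt replicate 2 or d200 replicate 2, and they became 10 with the replicate block, 7 with DESeq2 and 9 when only the compared groups were fitted. The 2-cell-like markers summed to 17.1 to 22.3 in d200 cells.

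In D174R cells the run was near the wt level. *Zfp982* was at 35.7 and 30.0, *Zfp988* at 31.4 and 33.2 and *Zfp985* at 98.8 and 89.7, and each overlapped the wt libraries given above. Their log2 fold changes were 0.01 (SE 0.13), -0.12 (SE 0.14) and -0.13 (SE 0.16). No member was called, beside 0.0604% of all genes called lower and 0.161% called higher, and none was called by edgeR or DESeq2. An unadjusted p under 0.05 was found in 10 of 53 members, beside 2601 of 14889 genes. In the run 10 of 14 were below 0 (51.4% of all genes), 3 were lower without overlap (29.9%), and none had an adjusted p under 0.01 (0.134%). The smallest p values belonged to *Zfp958* (log2FC -0.41, SE 0.11, adjusted p = 0.0609), *Zfp948* (-0.64, SE 0.17, adjusted p = 0.0676) and *Zfp938* (-0.44, SE 0.14, adjusted p = 0.129), all outside the run. The 2-cell-like markers summed to 2.35 to 3.95 in D174R cells. The difference between the effects of the alleles was not tested.

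**Figure D2:**
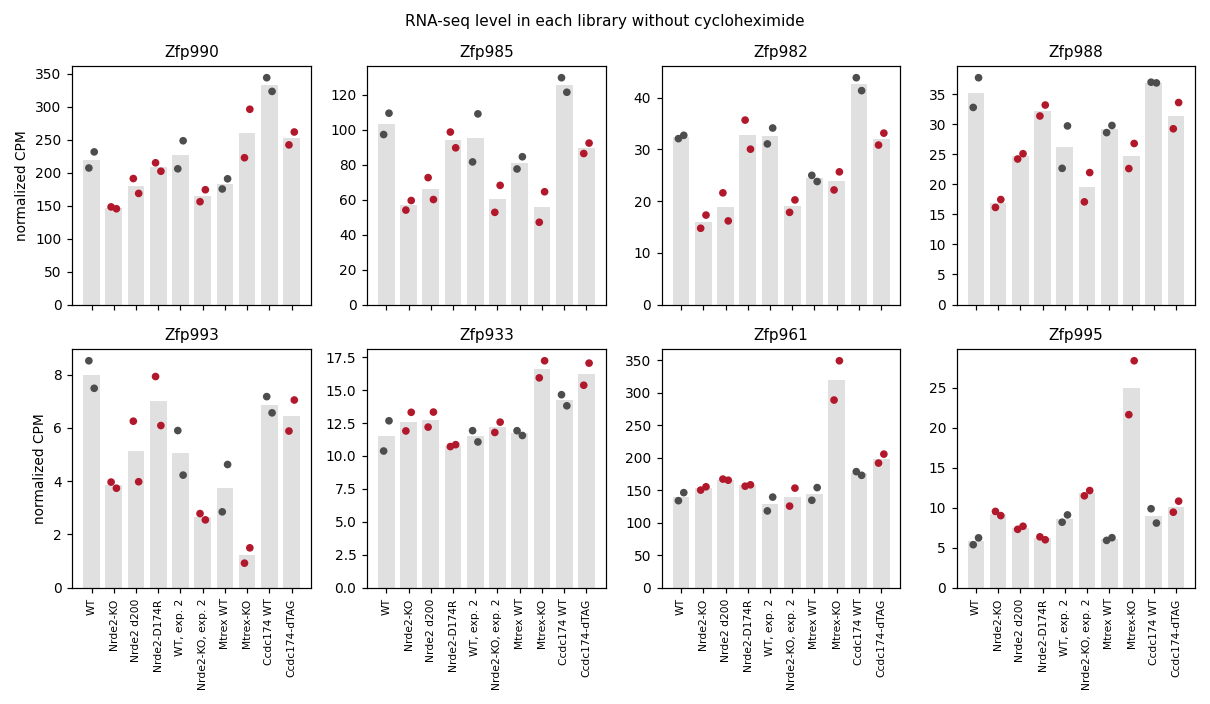
Normalized CPM of 8 members in each RNA-seq library without CHX (points, control libraries grey and changed libraries red) with the group means as bars, each axis starting at 0. *Zfp990*, *Zfp985*, *Zfp982*, *Zfp988* and *Zfp993* of the chromosome 4 run lie lower in both *Nrde2*-KO experiments than in their wt, *Zfp933* does not, and *Zfp961* and *Zfp995* are highest in *Mtrex*-KO.

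Ribosome footprints of the run were lower in *Nrde2*-KO too. *Zfp985* was at 10.4 and 11.1 normalized CPM in wt Ribo-seq and at 4.32 and 5.59 in *Nrde2*-KO (log2FC -1.09, SE 0.20, adjusted p = 0.000261). *Zfp982* was at 6.39 and 4.00 in wt and at 2.34 and 2.21 in *Nrde2*-KO (log2FC -1.07, SE 0.29, adjusted p = 0.00691). *Zfp981* was at 7.83 and 8.94 in wt and at 3.6 and 4.55 in *Nrde2*-KO (log2FC -1.0, SE 0.22, adjusted p = 0.00141). None of the 3 overlapped between groups. These were the called members, 3 of 41 beside 2.8% of all 13857 genes tested, and none was called higher (3.62%). DESeq2 called none of them. *Zfp990* fell from 23.6 and 23.5 to 14.0 and 12.9 (log2FC -0.8, SE 0.13, adjusted p = 7.01e-05), and *Zfp979* from 16.7 and 15.5 to 8.63 and 9.37 (log2FC -0.82, SE 0.15, adjusted p = 0.000309), both without overlap.

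In the run 11 of 11 tested members were below 0 in Ribo-seq (49.8% of all genes), 9 had groups without overlap (34.2%), 5 had an adjusted p under 0.01 (14.2%, 1 by DESeq2), and the median was -0.92. The 30 tested members outside the run had a median of -0.14, and all 41 a median of -0.35 beside 0.00 over all genes. *Zfp933* had 1.70 and 2.40 in wt and 2.16 and 1.82 in *Nrde2*-KO (log2FC -0.02, SE 0.35, adjusted p = 0.965). Summed over the run, footprints were 78.9 and 79.7 in wt and 43.5 and 42.2 in *Nrde2*-KO, and over the other members 101 and 94.8 in wt and 87.4 and 93.4 in *Nrde2*-KO. The change of Ribo-seq relative to RNA-seq, tested as an interaction, called no member (0.289% of all genes lower and 1.23% higher). At an unadjusted p under 0.05 were 7 of 41 members, a smaller share than the 4046 of 12788 genes, and edgeR and DESeq2 called no member. The smallest p belonged to *Zfp953* (difference -1.21, SE 0.35, adjusted p = 0.0288). The median of that difference was -0.17 over the members and 0.03 over all genes. Of the 2-cell-like markers 5 were at 0 in both wt Ribo-seq libraries, and the sum was 0.130 to 0.801 in wt and 1.56 to 1.80 in *Nrde2*-KO.

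Depletion of CCDC174 left the members within the limit of 1. *Zfp990* was at 344 and 324 in its control and at 242 and 262 after depletion (log2FC -0.41, SE 0.12, adjusted p = 0.0366). *Zfp985* was at 130 and 122 in the control and at 86.5 and 92.5 after depletion (log2FC -0.49, SE 0.16, adjusted p = 0.0489). Both groups lay apart without overlap. The third smallest p belonged to *Zfp959*, which was higher (log2FC 0.43, SE 0.14, adjusted p = 0.0511). No member was called, beside 1.18% of all genes called lower and 0.222% called higher, and none by edgeR or DESeq2. An unadjusted p under 0.05 was found in 11 of 53 members, beside 3712 of 14889 genes. In the run 11 of 14 were below 0 (47.1% of all genes), 10 were lower without overlap (26.1%), none had an adjusted p under 0.01 (4.53%), and the median was -0.24, against 0.15 over the 39 members outside it. In the CHX-treated libraries of this line *Zfp990* was at 898 and 791 in the control and at 661 and 634 after depletion (log2FC -0.38, SE 0.06, adjusted p = 0.00206), and in the run 13 of 16 were below 0 (48.5%) and 4 had an adjusted p under 0.01 (6.17%). No member was called there, beside 0.762% of all genes called lower and 0.213% called higher, and none by edgeR or DESeq2. With CHX the unadjusted p was under 0.05 in 22 of 55 members, beside 5436 of 15476 genes. The CCDC174 effect minus the *Nrde2*-KO effect was tested as a difference. It called no member (0.369% of all genes above and 0.625% below), and none by edgeR or DESeq2. Its unadjusted p was under 0.05 in 14 of 53 members, beside 3301 of 14889 genes. The smallest p values of that difference were those of *Zfp991* (0.87, SE 0.21, adjusted p = 0.0191), *Zfp988* (0.82, SE 0.19, adjusted p = 0.0193) and *Zfp950* (-0.76, SE 0.20, adjusted p = 0.028). The depletion effect with CHX against without also called none (0.0264% of all genes above and 0.033% below), and none by edgeR or DESeq2. Here the unadjusted p was under 0.05 in 2 of 54 members, beside 1454 of 15133 genes.

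*Mtrex*-KO changed some members strongly, although the members were called less often than all genes in both directions. *Zfp995* was at 5.90 and 6.24 in wt and at 21.6 and 28.4 in *Mtrex*-KO, a 3.96-fold rise (log2FC 1.99, SE 0.15, adjusted p = 2.7e-09). *Zfp961* was at 134 and 154 in wt and at 289 and 349 in *Mtrex*-KO (log2FC 1.14, SE 0.11, adjusted p = 7.48e-08). *Zfp950* was at 8.43 and 8.46 in wt and at 22.7 and 17.3 in *Mtrex*-KO (log2FC 1.21, SE 0.14, adjusted p = 6.44e-07). *Zfp961* thus more than doubled from a high level. *Zfp972* of the chromosome 2 run, whose annotated protein has a KRAB box and no finger, rose from 0.422 and 0.575 to 1.34 and 2.12 (log2FC 1.39, SE 0.26, adjusted p = 0.000142). Called lower were *Zfp993* and *Zfp992*, both of the chromosome 4 run. *Zfp993* went from 2.85 and 4.63 to 0.918 and 1.49 (log2FC -1.45, SE 0.25, adjusted p = 6.52e-05). *Zfp992* went from 11.6 and 10.8 to 6.16 and 4.38 (log2FC -1.07, SE 0.17, adjusted p = 2.64e-05). All 6 had groups without overlap.

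Called higher were thus 4 of 53 members, beside 15.4% of all genes, and called lower 2, beside 11.3%. The median of the members was -0.03 and that of all genes -0.02. Within the chromosome 4 run the genes went apart: *Zfp990* was at 175 and 191 in wt and at 223 and 296 in *Mtrex*-KO (log2FC 0.49, SE 0.12, adjusted p = 0.00172), 5 of 14 were lower and 3 higher at an adjusted p under 0.01 (28.3% and 27.7% of all genes), and the median was -0.12. The *Mtrex*-KO libraries stood apart from the others. Reads in genes made up 72.1% and 82.7% of what the CPM were scaled to, against 86.4% and 89.3% in their wt, the 2-cell-like markers summed to 108 and 295 against 5.50 to 16.8, and 6 trophectoderm markers to 458 to 486 against 82.7 to 116. Their part was not tested. On the CPM as deposited, where the median of all genes was -0.38, 2 members were called higher and 8 lower. The *Mtrex*-KO effect minus the *Nrde2*-KO effect was past the same limits in 5 members above 0 (11.3% of all genes) and 2 below (7.31%).

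**Figure D3:**
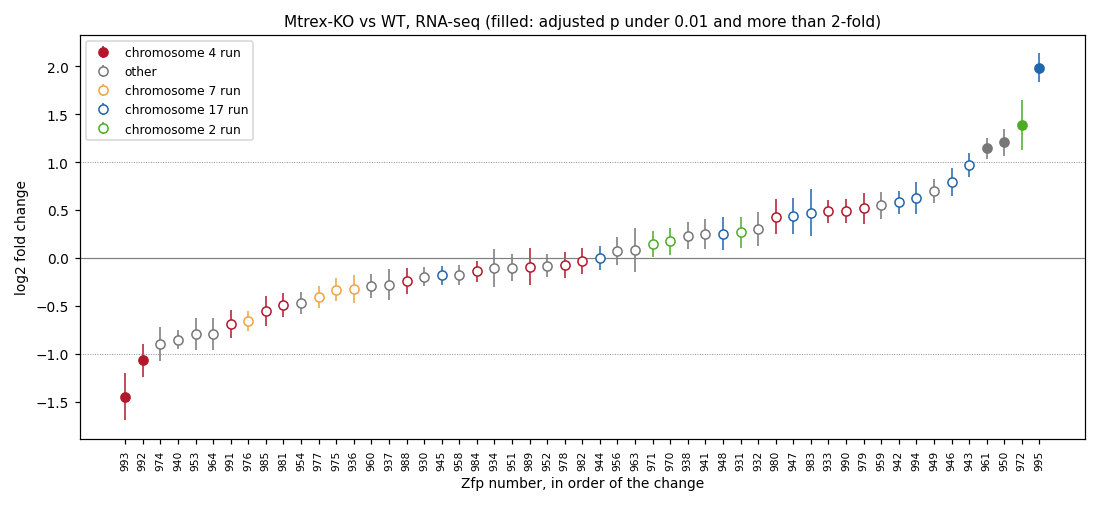
Log2 fold change in *Mtrex*-KO against wt (vertical axis, bars are SE, 2 libraries per group) of the 53 tested members in order of the change, coloured by run, with filled points for the 6 called members and dotted lines at the limits of 1 and -1. *Zfp995* at 1.99 and *Zfp993* at -1.45 are the ends of the order, and genes of the chromosome 4 run lie at both sides of 0.

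CHX raised the members broadly, in every background. Size factors were set within each fit, so the same library without CHX has slightly higher values in the CHX comparisons than above. *Zfp988* was at 24.5 and 32 without CHX and at 124 and 116 with it in wt cells of the *Nrde2* line, a 4.27-fold rise (log2FC 2.09, SE 0.12, adjusted p = 5.82e-09). *Zfp974*, the member with the most fingers, in which no KRAB box was found, went from 6.33 and 5.93 to 25.4 and 23.1 (log2FC 1.94, SE 0.11, adjusted p = 3.47e-09). *Zfp990* went from 223 and 268 to 702 and 741 (log2FC 1.56, SE 0.09, adjusted p = 5.44e-09). The groups of these genes lay far apart. In wt of the *Ccdc174* line, which shares no library with the first, *Zfp974* went from 3.43 and 3.57 to 18.1 and 21.2 (log2FC 2.4, SE 0.11, adjusted p = 3e-10), and *Zfp964* from 1.84 and 2.57 to 12.1 and 13.0 (log2FC 2.4, SE 0.15, adjusted p = 7.41e-09).

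Called higher with CHX were 29 of 54 members in wt of the *Nrde2* line (11.1% of 15133 genes), 25 in *Nrde2*-KO (10.4%), 25 in wt of the *Ccdc174* line (12.6%) and 22 after CCDC174 depletion (11.6%), and no member was called lower in any of the 4 (2.97%, 3.51%, 2.7% and 2.86% of all genes). Neither edgeR nor DESeq2 called a member lower with CHX in any of the 4. The medians of the members were 1.02, 0.96, 0.84 and 0.84, and those of all genes lay between -0.02 and 0.00. In wt of the *Nrde2* line 51 of 54 members were above 0 (49.6% of all genes), and in 51 the libraries with CHX lay above those without (39.8%). Both wt lines called 23 members, which were 79.3% of the calls in the one and 92% of those in the other, and 18 were called in all 4 backgrounds. The 286 other genes named Zfp with a number were called higher in 79 cases in wt of the *Nrde2* line, with a median of 0.64. In wt of the *Ccdc174* line they were called in 103 cases with a median of 0.71, and after depletion in 97 with a median of 0.7, closer to the members than in the *Nrde2* line. The gap between both kinds of gene was not tested.

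The response was not limited to a run. In wt of the *Nrde2* line 12 of 15 tested members of the chromosome 4 run, 5 of 10 of the chromosome 17 run and 1 of 4 of the chromosome 2 run were called. *Zfp948* of the chromosome 17 run went from 13.6 and 14.6 to 48.3 and 56.6 (log2FC 1.88, SE 0.13, adjusted p = 2.37e-08). It was followed in size by *Zfp992* (log2FC 1.82) and *Zfp964* (log2FC 1.7). Below 0 in all 4 backgrounds were *Zfp953* and *Zfp954*. *Zfp953* was at 22.0 and 25.2 without CHX and at 18.1 and 21.8 with it in wt of the *Nrde2* line (log2FC -0.25, SE 0.16, adjusted p = 0.203), and its largest difference was after CCDC174 depletion (log2FC -0.59, SE 0.16, adjusted p = 0.00528). Summed over all 63 members the level went from 1549 and 1777 to 3577 and 3637 normalized CPM in wt of the *Nrde2* line. The mESC markers, on the scale of the CHX comparisons, went the other way, from 7178 and 7181 to between 4744 and 4778, and the part of such shifts in the members' values was not tested.

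**Figure D4:**
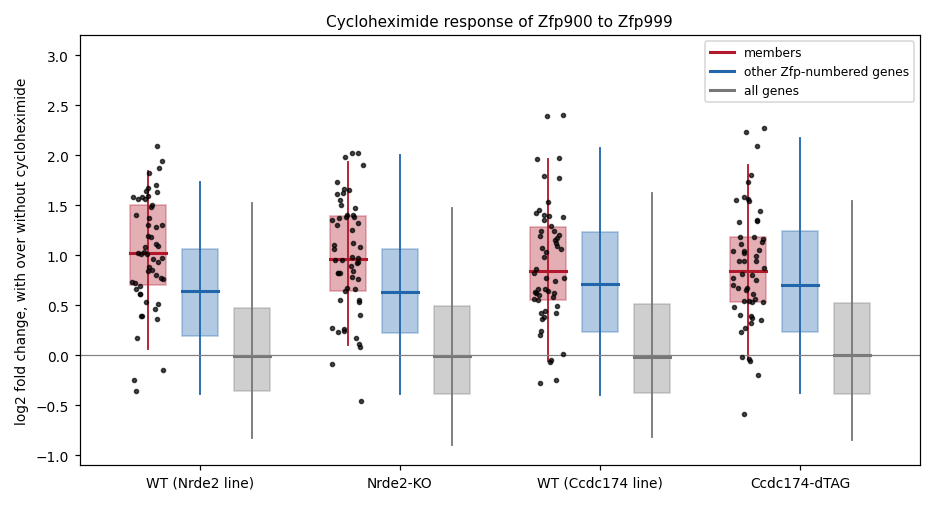
Log2 fold change with over without CHX (vertical axis) in 4 backgrounds, for the 54 tested members (red, points are genes), other genes named Zfp with a number (blue) and all genes tested (grey). Thick lines are medians, boxes span the 25th to 75th and thin lines the 5th to 95th percentile, and the members' medians of 0.84 to 1.02 lie above those of all genes, which are near 0.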

How the data were processed

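The files held RNA-seq (28 libraries) and Ribo-seq (4 libraries) values per gene as CPM, deposited by the authors. Per the labels and the methods of the study, reads of stranded libraries were aligned with STAR 2.7.3a to mm10, and uniquely mapping reads on the gene's strand were counted with featureCounts on GENCODE genes. The CPM steps gave back whole reads for 100% of the values. Names, positions and coding parts came from GENCODE M21 (55154 of the 55335 genes matched) and promoters from RefSeq (GRCm38.p6).

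CPM were divided by median-of-ratios factors, 0.25 was added, and genes averaging 0.5 CPM or more were tested on the log2 scale with limma 3.58.1 (lmFit, eBayes with trend). Genes with an adjusted p under 0.01 and a log2 fold change beyond 1 were called, as in the study's limits. A fold change on this scale understates the change of low genes. Separate fits were made for the 20 libraries without CHX, CHX contrasts and Ribo-seq. Genes named with values were taken from the 5 largest calls in each direction, the 3 smallest p values where nothing was called, the 10 most abundant members and those at 0. *Zfp933*, *Zfp950*, *Zfp953*, *Zfp954* and *Zfp975* were added after their values were seen. Alternatives were other pseudocounts (0.1 and 1), other filters, CPM as deposited, edgeR 4.0.16 and DESeq2 1.42.0 on the recovered reads, a replicate block, only the compared groups, and leaving out each library. The members, lists and groups were chosen with earlier results of these data known. The fit was tested on simulated data. Crosslinking libraries of the series were not used here.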

Additional observations from a re-analysis of the deposited data

Results flagged for a closer look

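In 7 members the *Mtrex*-KO effect differed from the *Nrde2*-KO effect by limma's test of the difference itself, with 2 libraries per group and adjustment over all 14889 genes. Of 53 members tested 5 were above and 2 below, smaller shares than the 11.3% of all genes called above and 7.31% below. The difference of log2 fold changes (*Mtrex*-KO minus *Nrde2*-KO) was 1.77 for *Zfp972*, 1.33 for *Zfp995*, 1.11 for *Zfp979*, 1.07 for *Zfp990* and 1.02 for *Zfp961*. It was -1.01 for *Zfp964* and -1.03 for *Zfp953*. These calls depend on single libraries: without wt replicate 1 of the *Nrde2* line 7 were above and 0 below, without wt replicate 2 of that line 3 were above, and without *Mtrex*-KO replicate 2 only 2 were above. With 1 added before log2 there were 0 below. *Zfp979* and *Zfp990* belong to the chromosome 4 run and were lower in *Nrde2*-KO (-0.60 and -0.58) and higher in *Mtrex*-KO (0.52 and 0.49). *Zfp953* was at 22.4 and 23.6 in the wt of *Mtrex*-KO and at 13.3 and 13.0 in the knockout, and at 14.6 and 22.2 in the wt of *Nrde2*-KO and at 21.1 and 21.4 in the knockout. The knockouts were compared with different wt lines, and days of 4OHT differed, so line, time and gene cannot be told apart.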

How the results depend on the processing

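The direction of the values held: no value changed sign among those called. Over the alternatives the named members kept their side of the threshold in 882 cases, lost it in 56 and gained it in 1, and of the medians 245 moved by less than the limit and 7 by more. The counts of members higher with CHX stayed within 18 to 36. With 1 added before log2, members lower were 1 in *Nrde2*-KO, 1 in *Mtrex*-KO, 0 in Ribo-seq and 0 in the *Mtrex*-KO minus *Nrde2*-KO difference. On CPM as deposited they were 0 in *Nrde2*-KO, 8 in *Mtrex*-KO with 2 higher, 0 in Ribo-seq, and 5 in the difference with 1 higher. In Ribo-seq they were 1 without a filter and 0 with DESeq2. Leaving out 1 library gave 0 to 2 lower in *Nrde2*-KO, 0 to 1 in d200, 0 to 2 lower and 2 to 7 higher in the difference, and 0 to 1 lower for Ribo-seq relative to RNA-seq.

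The counts in the chromosome 4 run were added after seeing the data. Of its members lower at an adjusted p under 0.01, *Nrde2*-KO had 10 and 6 without a filter, 5 on CPM as deposited and 2 to 7 without 1 library. The second experiment had 5 and 1 without a filter, 1 on CPM as deposited, 3 with only the compared groups and 1 to 5 without 1 library. In d200 cells there were 4, 7 with DESeq2, 9 with only the compared groups and 1 to 3 without 1 library, and in Ribo-seq 5, 3 without a filter and 1 with DESeq2. The cause of these shifts was not tested. Members of the run below 0 were 13 to 14 in *Nrde2*-KO and 12 to 15 in the second experiment over all alternatives.

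With the replicate number as a block the counts of members called were 3 lower in *Nrde2*-KO, 1 in d200, 4 higher and 2 lower in *Mtrex*-KO, and 29, 25, 25 and 22 higher with CHX, as without it, and the run's count rose to 8 in the second experiment and to 10 in d200 cells. Deviations of same-numbered libraries correlated over genes at 0.12 to 0.36 in the second *Nrde2* experiment, 0.18 to 0.36 in the *Ccdc174* experiment, 0.42 between *Mtrex*-KO and its wt, -0.03 to 0.27 in the first *Nrde2* experiment and -0.03 in Ribo-seq. With 2 numbers per group and no label of a shared day or culture this is a hint from the data, and the numbers were taken as names only. Ribo-seq had fewer reads than RNA-seq (3475051 to 5035940 per library), which left 41 members to test.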

Other observations

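The chromosome 4 run also holds 5 tested protein-coding genes that are not members. All 5 (*Gm13212*, *Gm21411*, *Rex2*, *Zfp534* and *Zfp600*) were below 0 in *Nrde2*-KO, with a median log2 fold change of -0.58, and adjusted p was under 0.01 in *Gm21411* (-0.69) and *Zfp534* (-0.69). In the second experiment all 5 were below 0 again, with a median of -0.26 and none at an adjusted p under 0.01. *Gm13212*, *Rex2*, *Zfp534* and *Zfp600* hold the promoter stretch shown above.

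The 10 members of the chromosome 17 run had a median log2 fold change of 0.16 in *Nrde2*-KO (7 above 0), 0.23 in the second experiment (9 above 0) and 0.53 in *Mtrex*-KO (8 above 0), where 5 were higher at an adjusted p under 0.01. Over all 14889 genes 7279, 7432 and 7265 were above 0 in these comparisons, and 4131 were higher at that adjusted p in *Mtrex*-KO. All 10 were above 0 with CHX in each of the 4 backgrounds.

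Of 31 tested genes for the proteins through which KRAB boxes act, *Mta1*, a subunit of the NuRD complex, was called lower in *Nrde2*-KO (log2 fold change -1.06) and in the second experiment (-1.33), and the list's median in *Nrde2*-KO was -0.14. Over all 14889 genes 318 and 368 were called lower. In Ribo-seq 4 of the 31 were called lower, beside 388 of 13857 genes, namely *Mta1* (-1.56), *Chd3* (-1.25), *Morc2a* (-1.09) and *Dnmt1* (-1.03). In that comparison 26 were below 0 (49.8% of all genes), 19 were lower at an adjusted p under 0.01 (14.2%), and the list's median was -0.50. In *Mtrex*-KO *Dnmt3l*, a cofactor of DNA methyltransferases, was higher (1.59), *H3f3b*, which encodes histone H3.3, was higher (1.23), and *Uhrf1*, needed for maintenance of DNA methylation, was lower (-2.04), beside 2292 genes called higher and 1679 called lower of 14889. With CHX in wt of the *Nrde2* line *Cbx5*, which encodes HP1 alpha, was lower (-1.5), with a list median of -0.12 and none higher, against the rise of the members. *Trim28* and *Setdb1* were not called in these comparisons. The log2 fold change of *Trim28* was 0.06 in *Nrde2*-KO, -0.27 in Ribo-seq, -0.96 in *Mtrex*-KO (adjusted p = 6.58e-06) and -0.43 with CHX (adjusted p = 0.00472). That of *Setdb1* was -0.08, -0.61 (adjusted p = 9.36e-06), -0.19 and 0.18 in the same order.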
